A study of Vitis vinifera with 36 samples.

Results

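The flavonoid 3'-hydroxylases (F3'H) and flavonoid 3',5'-hydroxylases (F3'5'H) of the grape berry were described across treatments and stages of ripening. Members were the genes with a cytochrome P450 domain whose NR or KEGG description names a flavonoid 3'- or 3',5'-hydroxylase (monooxygenase) and which lie in the cluster of chromosome 6 or in the pair of chromosome 17. Of the 25280 genes of the deposited table, 17 met this rule, 15 on chromosome 6 and 2 on chromosome 17. With the description taken letter for letter there were 16, because that of VIT_217s0000g07200 is written with a hyphen; hyphen and space were read alike here. Genes are called below by the last part of their identifiers, for example g02830 for VIT_206s0009g02830 and g07200 for VIT_217s0000g07200.

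Vines of Vitis vinifera cv. Cabernet Sauvignon were sprayed in 2015, at E-L 33, when berries were still hard and green, 7 weeks after flowering. The sprays were ABA1000 (1000 mg/L of the ripening hormone abscisic acid), NAA100 (100 mg/L of the synthetic auxin 1-naphthaleneacetic acid) or Control, and each was given a second time on the same day. The solutions of all 3 treatments held 0.05% Tween 20, so the control vines received the detergent without a hormone. Berries were collected at the stages E-L 34, 35, 36 and 38, which run from the start of softening over the start of colouring to harvest ripeness, and the 12 groups of treatment and stage held 3 libraries each. Each treatment covered 3 plots of 50 vines in randomized blocks, a replicate was a collection of 500 berries, and RNA came from 50 of them after the seeds were taken out, so each library averages the whole pericarp (skin and flesh) of a pool of berries. Sampling followed the stage of the berries, and the paper reports that ABA-treated berries ripened earlier than the control and NAA-treated berries later. Groups of the same stage therefore also differ in calendar date and in time since the spray. The spray was applied to field vines at a single time, so a difference at a later stage may hold a shift in the timing of ripening as well as a change at equal ripeness. These, and the difference in date, cannot be told apart.

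Both enzymes are cytochrome P450 monooxygenases that add hydroxyl groups to the B-ring of flavonoids. F3'H adds a single hydroxyl group and opens the way to cyanidin-type pigments and quercetin, whereas F3'5'H adds a pair of them and opens the way to delphinidin-type pigments and myricetin. Their balance is known to influence the hue of red grape skins, in which F3'5'H genes form a large tandem family and anthocyanin is made after the onset of ripening. Both draw electrons from NADPH-cytochrome P450 reductase, and cytochrome b5 is known to assist F3'5'H in petunia.

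The deposited FPKM (fragments scaled by the length of the transcript in kilobases and by the size of the library) were scaled to 25.6 M to 28.7 M fragments per library, as recovered from the values. This is the number used for scaling, not all reads sequenced, and it differed little between libraries. Genes were tested on log2(FPKM + 1) with limma in 1 fit of all 12 groups, and called at an adjusted p (Benjamini-Hochberg) of 0.01 or less where the log2 fold change was 1 or more in size. Whether the libraries of 2 groups overlap was looked at for the members only. No share of all genes stands beside such statements below, which are descriptions. All 15 seed marker genes were detected although berries were deseeded, and their summed level exceeded 1000 FPKM in 3 libraries, which were ABA1000 E-L 34 replicate 3 (1203 FPKM), ABA1000 E-L 35 replicate 2 (2546 FPKM) and NAA100 E-L 35 replicate 3 (2075 FPKM). The last of these stood apart in its F3'5'H values, given below, but hardly over all tested genes. Its root mean square log2 distance from the other libraries of its group was 0.452, rank 1 of the 36, with a Control E-L 38 library next at 0.449. The 42 genes of the ripening pericarp list (20 reach 1 FPKM) summed to 11722 FPKM in this library and to 5774 and 4935 FPKM in the other libraries of its group. The 15 skin and cuticle genes (4 reach 1 FPKM) summed to 79.5 FPKM in it and to 34.9 and 31.3 FPKM in the others. No gene of these lists was at 0 in all 36 libraries. Calls of the members below, and the sums, orders and list counts that rest on it, are given with and without this library, and its origin was not tested. It was singled out with the member values known. Leaving it out lowers the spread of these genes by selection, so calls gained that way are no separate support.

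The cluster of chromosome 6 spanned 655 kb (chromosome 6, 15666626 to 16321386, in the coordinates of the deposited table, whose build is not given in the sources used here). Of its 15 genes, 14 lie on the plus strand and only g03140 on the minus strand. All 15 are described as F3'5'H by Uniprot, whereas NR describes 14 as F3'5'H and g02805, a model of 243 bp, as F3'H. Transcript lengths, taken from the value of a single fragment, were under 1000 bp for 6 of the models, among them the most abundant, g02830 (15714613 to 15715979, 936 bp). On chromosome 17, g07200 (8011519 to 8014480) and g07210 (8036250 to 8037753) are both described as F3'H.

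Expression was uneven along the cluster. Over the 36 libraries, g02830 held 50.2% of the summed FPKM of the 15 genes, g02970 16.8%, g02810 14.6%, g02840 11.6% and g03010 5.72%, so that the 4 most abundant genes made up 93.1%. The 9 chromosome 6 genes that did not reach 1 FPKM in 3 libraries held 0.802%. Of the chromosome 17 pair, g07200 held 99.2% of the summed FPKM. In all, 7 members were tested (6 on chromosome 6, 1 on chromosome 17) and 10 were not. Among the 7, g02805 just passed the filter, with 2 libraries of NAA100 at E-L 36 (4, 8 and 9 fragments in that group) and 1 of ABA1000 at E-L 38 at 1 FPKM or more. It entered through groups in which it is high, so the filter favoured its calls in comparisons with those groups in advance. These calls are included in the counts of members below but are no support for them. Near-identical tandem copies can share reads, and how the authors treated reads that map to several places, or strand, is not given in the sources used here, so the split of fragments within the cluster is uncertain.

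**Figure D1:**
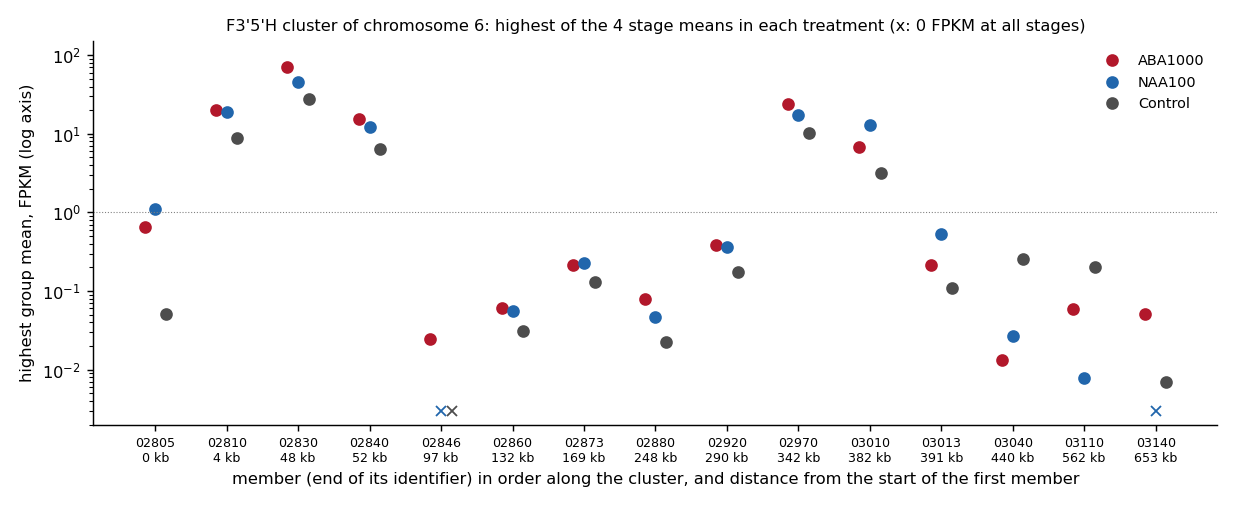
The 15 chromosome 6 members in their order along the cluster, with the distance in kb from the start of the first; each point is the highest of the 4 stage means (FPKM, log axis, 3 libraries a mean) in ABA1000, NAA100 or Control, and a cross marks 0 FPKM at all stages. The genes g02810, g02830, g02840, g02970 and g03010 stand above 1 FPKM (dotted line) in all 3 treatments, and the 9 untested genes below it.

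The 10 untested members had between 1 and 389 fragments in the 36 libraries together, and no library exceeded 0.849 FPKM. A few of them were unevenly spread. The gene g02920 had 284 fragments in all, with 10, 24 and 18 in ABA1000 berries at E-L 35, 0, 0 and 8 in NAA100 berries and 3, 5 and 0 in control berries, so it showed the pattern of the abundant genes at a low level. The gene g03013 was highest in NAA100 berries at E-L 38, with 18, 10 and 10 fragments, against 3, 4 and 1 in control berries. On chromosome 17, g07210 had 23, 31 and 19 fragments in NAA100 berries at E-L 36, against 15, 12 and 5 in control berries. The members g03040 and g03110 had their most fragments, 13 and 23, in 1 library, Control E-L 38 replicate 1. There g03050, which lies between them, had 19. It is described as F3'5'H by Uniprot only and is not a member. Differences between treatments were not tested at these levels.

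In control berries the F3'5'H genes were low at E-L 34 and higher later on. The gene g02830 had 7.32, 3.02 and 5.75 FPKM at E-L 34, 8.40, 22.7 and 9.86 FPKM at E-L 35, 26.8, 32.9 and 23.6 FPKM at E-L 36, and 26.9, 32.4 and 20.1 FPKM at E-L 38. Its libraries at E-L 36 stood above those of both earlier stages, and those at E-L 38 overlapped with those at E-L 36. None of the 7 tested members was called between successive control stages, where limma called 2.70% (E-L 35 against E-L 34), 4.66% (E-L 36 against E-L 35) and 17.2% (E-L 38 against E-L 36) of all tested genes. At an unadjusted p under 0.05, 3, 1 and 2 members were higher and 0 lower in these steps, and limma-voom on the recovered fragments called 0 in each. The share of all genes under these settings is not given, here or below. Such counts therefore cannot be set against a background. Without NAA100 E-L 35 replicate 3, which enters these comparisons only through the shared estimate of the spread, g02810 (1.11, adjusted p = 0.0034) and g02970 (1.21, adjusted p = 0.0017) were called higher at E-L 35 than at E-L 34, 2 members (1.09% of all genes called higher).

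The F3'H gene g07200 took another course. In control berries it had 15.9, 19.8 and 15.4 FPKM at E-L 34, 20.0, 23.3 and 18.6 FPKM at E-L 35, 25.9, 30.0 and 25.1 FPKM at E-L 36, and 49.7, 48.7 and 54.6 FPKM at E-L 38. All libraries of E-L 38 lay above all of E-L 36. That step had a log2 fold change of 0.89 ± 0.14 (SE) with an adjusted p of 3.8e-06, under the size limit for a call. The step between the same stages was 0.80 (adjusted p = 1.5e-05) in ABA1000 berries and −0.22 (adjusted p = 0.71) in NAA100 berries.

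**Figure D2:**
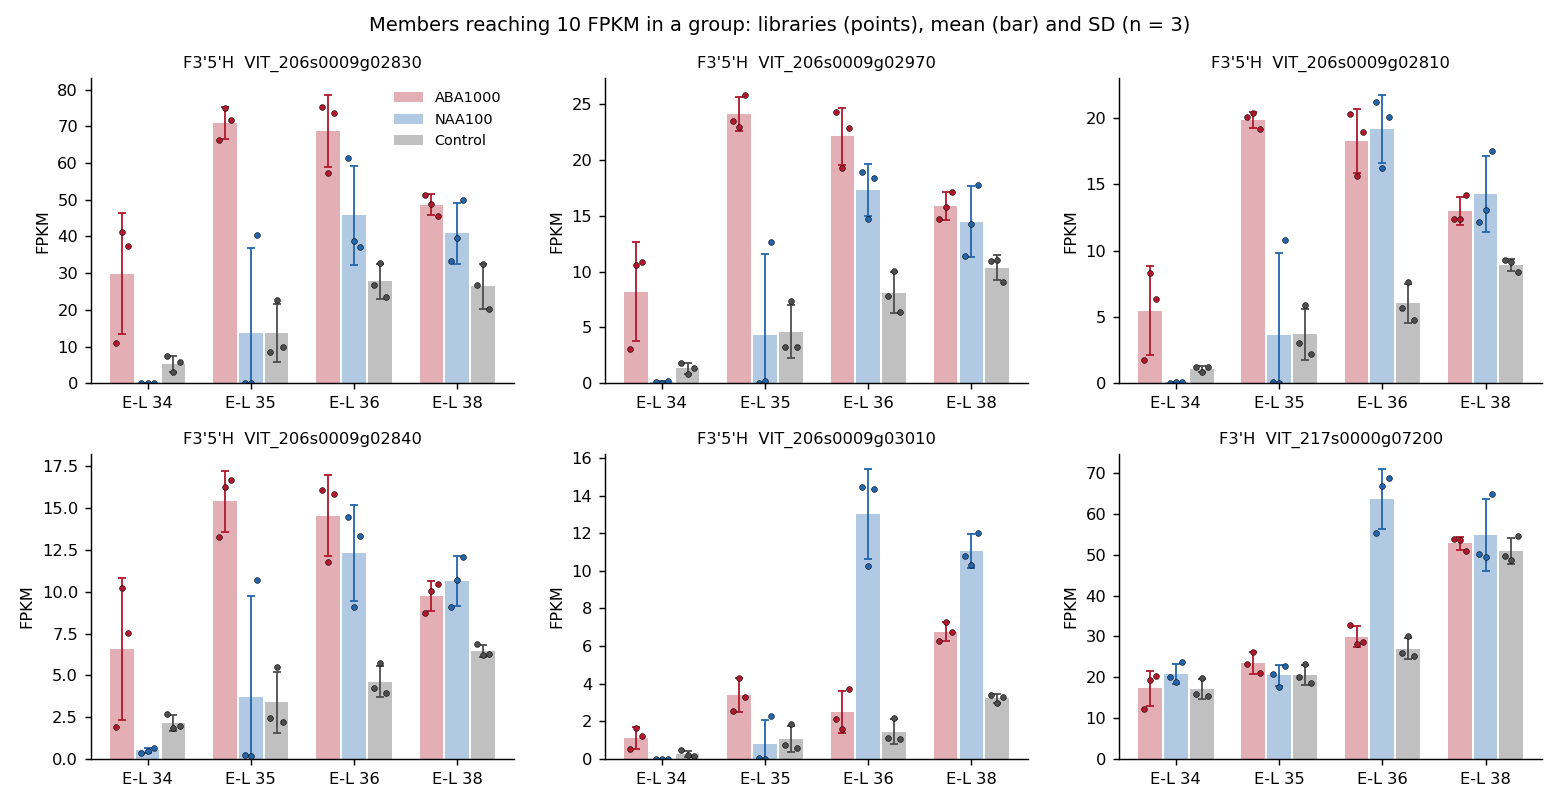
FPKM of the 6 members with a group mean of at least 10 FPKM, 1 panel each with its own linear axis; each point is a library, each bar the mean of 3 and each error bar the SD, with ABA1000, NAA100 and Control side by side at E-L 34, 35, 36 and 38. In the 5 F3'5'H panels the NAA100 libraries lie near 0 at E-L 34 and at E-L 35 except for replicate 3, whereas the g07200 panel shows a separate group only for NAA100 at E-L 36.

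ABA1000 was set against the control to see how the genes answered to added abscisic acid. Of the 7 tested members, 3 were called, all F3'5'H genes that rose at E-L 35, where limma called 0.847% of all tested genes higher. The gene g02810 had 20.0, 20.3 and 19.2 FPKM in ABA1000 berries, against 3.03, 5.87 and 2.18 FPKM in control berries (log2 fold change 2.23 ± 0.52, adjusted p = 0.0035). The gene g02970 had 23.5, 22.96 and 25.9 FPKM, against 3.22, 7.38 and 3.25 FPKM (2.24 ± 0.54, adjusted p = 0.0045). The gene g02840 had 13.3, 16.2 and 16.7 FPKM, against 2.46, 5.49 and 2.23 FPKM (1.97 ± 0.51, adjusted p = 0.0076). Treated and control libraries of these genes did not overlap, and the mean FPKM was 5.37, 5.23 and 4.54 times that of the control for g02810, g02970 and g02840. Marker sums moved with this rise. The skin and cuticle genes summed to 97.0 to 118 FPKM in ABA1000 berries at E-L 35, against 47.2 to 93.4 FPKM in control berries, and the ripening pericarp genes to 14091 to 17581 FPKM, against 11834 to 14029 FPKM, without overlap in either list, and their part in the result was not tested. In these bulk samples more cells that express a gene and more RNA per cell cannot be told apart.

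The most abundant member behaved alike in size but missed the threshold. The gene g02830 had 66.2, 74.9 and 71.6 FPKM in ABA1000 berries at E-L 35, against 8.40, 22.7 and 9.86 FPKM in control berries, a 5.19-fold higher mean with a log2 fold change of 2.42 ± 0.74 and an adjusted p of 0.020. The gene g03010 had 2.56, 4.32 and 3.31 FPKM, against 0.746, 1.85 and 0.599 FPKM (1.12 ± 0.30, adjusted p = 0.011). All groups share 1 estimate of the spread. Without NAA100 E-L 35 replicate 3 the SE of g02830 was 0.34 in place of 0.74, and g02830 (adjusted p = 3.6e-05), g02810, g02840, g02970 and g03010 (adjusted p = 8.2e-04) were all called higher at E-L 35, 5 of 7 tested members beside 1.04% of all genes called higher. Conversely, the 3 calls of the full set were lost when ABA1000 E-L 35 replicate 1, 2 or 3, or Control E-L 35 replicate 1 or 3, was left out, with adjusted p between 0.0113 and 0.0403. They were also lost with 0.1 added in place of 1 (adjusted p = 0.032 to 0.040) and with the 6 libraries of the comparison alone (adjusted p = 0.013 to 0.016), those of g02840 and g02970 with TPM (adjusted p = 0.013 and 0.010), and that of g02840 without the filter (adjusted p = 0.012). Fits of the 6 libraries of each comparison alone gave 4 other member calls of ABA1000 against control over the stages. No share of all genes is given for them. The call of g03010 was gained without ABA1000 E-L 34 replicate 1, ABA1000 E-L 36 replicate 3, Control E-L 35 replicate 2 or any NAA100 library of E-L 35, with adjusted p of at most 0.0093.

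At the other stages no member was called between ABA1000 and control, beside 0.688% of all genes, in either direction, at E-L 34, 0.665% at E-L 36 and 0.648% at E-L 38. At an unadjusted p under 0.05 in limma, 5, 3 and 2 members were higher in ABA1000 at these stages and 0 lower, and limma-voom called 0, 2 and 0 higher. These counts, too, have no share of all genes beside them. At E-L 34, g02830 had 11.1, 41.1 and 37.4 FPKM in ABA1000 berries, against 7.32, 3.02 and 5.75 FPKM in control berries (log2 fold change 2.14, adjusted p = 0.059). ABA1000 replicate 1 was the lowest of its group for all 5 of the more abundant F3'5'H genes, and still above every control library for g02810, g02830, g02970 and g03010, while g02840 overlapped. Without NAA100 E-L 35 replicate 3, the members g02810 (1.47, adjusted p = 0.0012), g02830 (adjusted p = 3.7e-04) and g02970 (1.85, adjusted p = 1.9e-04) were called higher at E-L 34 (0.369% of all genes called higher), g02810, g02840 and g02970 at E-L 36 (0.614%), and none at E-L 38 (0.682% called in either direction). The median log2 fold change of the 7 tested members was 1.07, 1.97, 1.28 and 0.58 at the 4 stages in turn, against −0.08, −0.08, −0.06 and 0.03 over all tested genes. Whether the ABA1000 effect differed between successive stages was tested as an interaction, and 0 members were called in any of the 3 steps (0.955%, 0.676% and 1.39% of all genes). At an unadjusted p under 0.05 only g02805 differed in 1 step, and limma-voom called 0.

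The F3'H gene g07200 was not called at any stage. At E-L 35 it had 23.3, 26.3 and 21.0 FPKM in ABA1000 berries, against 20.0, 23.3 and 18.6 FPKM in control berries. Its log2 fold changes were −0.0027, 0.18, 0.14 and 0.05 at the 4 stages in turn, each with an SE of 0.14, and treated and control libraries overlapped at every stage.

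**Figure D3:**
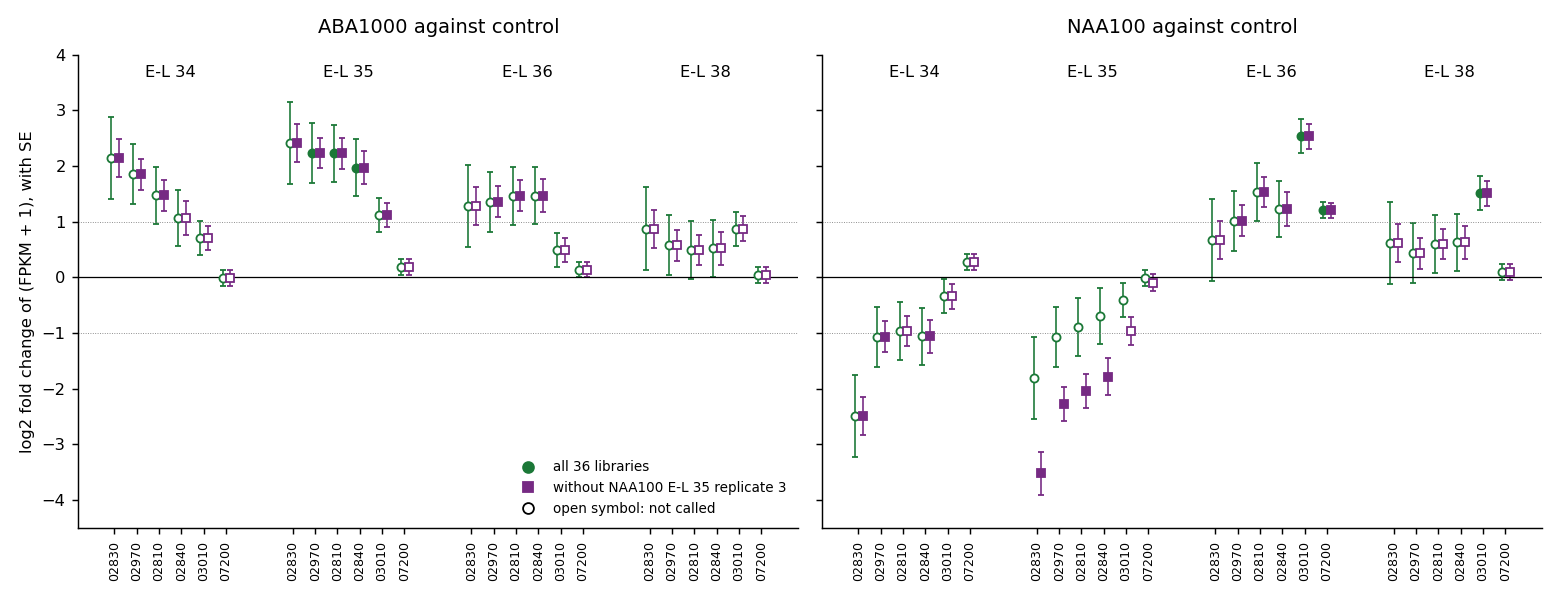
Log2 fold change of FPKM + 1 with its SE from limma for the 6 abundant members (named by the end of their identifiers), ABA1000 against control and NAA100 against control at each stage; circles are from all 36 libraries, squares from the fit without NAA100 E-L 35 replicate 3, and open symbols were not called. The 5 F3'5'H genes lie above 0 in ABA1000 at all 4 stages, and in NAA100 below 0 at E-L 34 and 35 and above 0 at E-L 36 and 38, with more filled squares than circles.

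In NAA100 berries the F3'5'H genes were nearly silent at E-L 34. The gene g02830 had 0.122, 0.113 and 0.0378 FPKM, against 7.32, 3.02 and 5.75 FPKM in control berries. In recovered fragments that was 7 over the group, against 419 in control berries, a 59.5-fold lower level for NAA100 (95% interval 28.6 to 149, covering counting error only). The other abundant F3'5'H genes went the same way. There were 7 fragments of g02810 in NAA100, against 120 in control (17.05-fold lower, 8.02 to 43.3), 15 of g02970, against 197 (13.1-fold lower, 7.73 to 23.8), and 77 of g02840, against 327 (4.22-fold lower, 3.29 to 5.49). For g03010 the 3 NAA100 libraries held 0 fragments, against 29 in control, which is at least 9.61-fold lower when set against a floor of 3 fragments over the group. All NAA100 libraries of these 5 genes were below all control libraries. How many of all tested genes separate in this way was not computed, so this is a description only.

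On the log2(FPKM + 1) scale, which understates changes of low genes, none of these differences was called, beside 3.79% of all genes at E-L 34. The nearest was g02830 (log2 fold change −2.48 ± 0.74, adjusted p = 0.012), and at an unadjusted p under 0.05 limma gave 2 members lower and 0 higher, while limma-voom called 0. Without NAA100 E-L 35 replicate 3, g02830 (adjusted p = 3.6e-06), g02840 (−1.06, adjusted p = 0.0080) and g02970 (−1.06, adjusted p = 0.0044) were called lower, 3 members beside 1.62% of all genes called lower. The call of g02830 was also gained without ABA1000 E-L 34 replicate 1 (adjusted p = 0.0097) or without NAA100 E-L 35 replicate 1 or 2 (adjusted p = 0.0062 and 0.0065). The marker sums of the ripening pericarp list moved with these genes, with 1317 to 2113 FPKM in NAA100 berries at E-L 34, against 4606 to 7939 FPKM in control berries, and those of the 17 green tissue genes (14 reach 1 FPKM) moved the other way, with 1679 to 2215 FPKM against 1014 to 1601 FPKM. Their part in the result was not tested. The F3'H gene g07200 was not low at this stage, with 20.0, 18.8 and 23.6 FPKM in NAA100 berries, against 15.9, 19.8 and 15.4 FPKM in control berries (0.27 ± 0.14, adjusted p = 0.15).

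At E-L 35 the NAA100 libraries split. The gene g02830 had 0.153, 0.188 and 40.4 FPKM in NAA100 berries, against 8.40, 22.7 and 9.86 FPKM in control berries. Replicates 1 and 2 were far below, and replicate 3, the library that stood apart, above every control library. The same held for g02810 (0.107, 0.0525 and 10.8 FPKM), g02840 (0.255, 0.173 and 10.7 FPKM), g02970 (0.0402, 0.158 and 12.7 FPKM) and g03010 (0.0555, 0 and 2.29 FPKM). With all libraries no member was called, beside 2.44% of all genes. At an unadjusted p under 0.05 limma gave 1 member lower, g02830, and 0 higher, and limma-voom called 0. Without replicate 3, g02830 (log2 fold change −3.52, adjusted p = 2.8e-07), g02970 (−2.28, adjusted p = 7.2e-06), g02810 (−2.04, adjusted p = 2.5e-05) and g02840 (−1.78, adjusted p = 3.2e-04) were called lower, 4 members beside 1.92% of all genes called lower, which rests on the 2 remaining libraries. The gene g07200 did not split, with 20.9, 17.7 and 22.8 FPKM in NAA100 berries. Replicate 3 was also apart for other genes of anthocyanin formation. The glutathione S-transferase GST4, needed for anthocyanin transport, had 4.48, 5.94 and 159 FPKM in the NAA100 libraries, and the anthocyanin O-methyltransferase AOMT1 1.31, 2.10 and 59.6 FPKM.

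At E-L 36 the NAA100 berries lay above the control instead. Of the 7 tested members, 3 rose in NAA100 berries relative to control, which were g03010, g07200 and the low g02805, beside 9.05% of all tested genes called higher. The call of g02805 was favoured by the filter and is no support here. The gene g03010 had 14.5, 10.2 and 14.3 FPKM in NAA100 berries, against 1.11, 2.20 and 1.03 FPKM in control berries (log2 fold change 2.53 ± 0.30, adjusted p = 3.4e-08). The F3'H gene g07200 had 55.2, 67.0 and 68.9 FPKM, against 25.9, 30.0 and 25.1 FPKM (1.20 ± 0.14, adjusted p = 2.6e-08). The ripening pericarp sums stood the other way, with 6689 to 8430 FPKM in NAA100 berries at E-L 36, against 16280 to 16849 FPKM in control berries, and the skin and green tissue sums overlapped. The ripening pericarp list itself changes with stage, down to 3282 to 6829 FPKM in control berries at E-L 38, so it does not measure a share of tissue. The part of these markers in the result was not tested. Neither gene overlapped between treatments, and both calls held in every alternative in which they were followed. The other F3'5'H genes were also above control in every library, a separation that has no share of all genes beside it. The gene g02810 had 21.2, 16.3 and 20.1 FPKM, against 5.65, 7.66 and 4.79 FPKM (1.53 ± 0.52, adjusted p = 0.011), and g02830 had 61.3, 38.7 and 37.1 FPKM, against 26.8, 32.9 and 23.6 FPKM (0.67 ± 0.74, adjusted p = 0.43). With NAA100 E-L 35 replicate 3 left out, 6 of the 7 members were called higher, all but g02830 (adjusted p = 0.083), beside 9.09% of all genes. The call of g02810 was also gained without NAA100 E-L 35 replicate 1 or 2 or ABA1000 E-L 34 replicate 1 or 2 (adjusted p = 0.0057 to 0.0097). The call of g02805 was lost without NAA100 E-L 36 replicate 2 or 3 (log2 fold changes of 0.98 and 0.94).

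A gene next to g03010 followed it. VIT_206s0009g03000 ends 1 bp before g03010 begins, is described as F3'5'H by Uniprot but as a hypothetical protein by NR, and is not a member. It had 13.8, 10.9 and 16.5 FPKM in NAA100 berries at E-L 36, against 0.614, 3.35 and 0.452 FPKM in control berries. Whether these are parts of 1 gene cannot be told from the table.

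At E-L 38 only g03010 rose in NAA100 berries relative to control, beside 0.398% of all genes called higher. It had 10.8, 10.3 and 12.03 FPKM, against 3.42, 2.96 and 3.28 FPKM (log2 fold change 1.51 ± 0.30, adjusted p = 6.1e-04). All 5 abundant F3'5'H genes were above control in every library, with log2 fold changes of 0.43 to 0.63 for the other 4, which were not called. The share of all genes that separate in this way was not computed, so this is no result about the members. The gene g07200 had 50.2, 49.5 and 64.9 FPKM, against 49.7, 48.7 and 54.6 FPKM (0.09 ± 0.14, adjusted p = 0.71). The call of g03010 was the only one also without NAA100 E-L 35 replicate 3 (0.432% of all genes), and it was lost with 0.1 added to the FPKM in place of 1 (1.75, adjusted p = 0.052). At this stage the ripening pericarp sums were 7852 to 8800 FPKM in NAA100 berries, against 3282 to 6829 FPKM in control berries, and their part was not tested.

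The 2 sprays were also set against each other, without the control. At E-L 34 all 5 abundant F3'5'H genes were called lower in NAA100 than in ABA1000 berries, with log2 fold changes from −4.63 for g02830 (adjusted p = 1.1e-05) to −1.05 for g03010 (adjusted p = 0.0058), beside 2.95% of all genes called lower. In fragments, g02830 had 7 in NAA100 and 2364 in ABA1000 berries (333-fold lower, 95% interval 161 to 828), and g03010 had 0 and 122 (at least 40.1-fold lower against the same floor). At E-L 35 the same 5 were called lower, from −4.22 for g02830 (adjusted p = 4.6e-04) to −1.52 for g03010 (adjusted p = 0.0014), beside 0.966% of all genes called lower, and even NAA100 replicate 3 lay below every ABA1000 library for each of them. At E-L 36, g03010 (2.04 ± 0.30, adjusted p = 1.1e-06), g07200 (1.06 ± 0.14, adjusted p = 1.8e-07) and g02805 were called higher in NAA100, beside 12.7% of all genes called higher. At that stage g03010 had 14.5, 10.2 and 14.3 FPKM in NAA100 berries and 2.12, 1.60 and 3.74 FPKM in ABA1000 berries, while the libraries of g02810, g02830 and g02840 overlapped between the sprays and those of g02970 lay lower in NAA100 (14.7 to 18.9 FPKM) than in ABA1000 berries (19.3 to 24.3 FPKM). At E-L 38 no member was called, beside 2.25% of all genes, with 1 member at an unadjusted p under 0.05 in limma (g03010, higher) and 0 called by limma-voom.

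Some of these calls rested on single libraries or on the shared estimate of the spread. With the 6 libraries of the comparison alone, all 5 calls at E-L 35 were lost (adjusted p = 0.14 to 0.16), and limma called 0 of the 17598 genes there. At E-L 34 the call of g03010 was lost without ABA1000 replicate 2 or 3 or any of the NAA100 libraries (adjusted p = 0.015 to 0.037) and that of g02840 without ABA1000 replicate 2 (adjusted p = 0.013) or with the 6 libraries alone (adjusted p = 0.014). At E-L 36 the log2 fold change of g07200 was 0.85, under the size limit, with median-of-ratios scaling. At E-L 35 the call of g02840 was lost without NAA100 replicate 1 or 2 (adjusted p = 0.017 and 0.019), and that of g03010 without the same libraries or ABA1000 replicate 2 (adjusted p = 0.012 to 0.024). Without NAA100 E-L 35 replicate 3 the counts were 5 lower, 5 lower, 3 higher and 0 at the 4 stages in turn, beside 2.97% called lower, 2.11% called lower, 12.7% called higher and 2.28% called in either direction of all genes.

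Within treatments, the largest step of these genes was that of NAA100 berries between E-L 35 and 36. All 6 abundant members rose, beside 8.94% of all genes called higher. The log2 fold changes were 3.57 ± 0.74 for g02830 (adjusted p = 9.9e-05), 3.19 ± 0.30 for g03010 (adjusted p = 3.1e-10), 3.07 for g02810, 2.84 for g02970, 2.34 for g02840 and 1.59 ± 0.14 for g07200 (adjusted p = 9.0e-11). With the 6 libraries of the step alone, the calls of g02810, g02830, g02840 and g02970 were lost (adjusted p = 0.017 to 0.045). The steps before and after it in NAA100 berries held no call (3.30% and 0.0114% of all genes), with 3 members higher at E-L 35 than at E-L 34 and 1 lower at E-L 38 than at E-L 36 at an unadjusted p under 0.05 in limma, and 0 called by limma-voom. In ABA1000 berries the 4 most abundant F3'5'H genes had their highest means at E-L 35 or 36 and g03010 at E-L 38 (6.75 FPKM). The gene g02830 had 66.2, 74.9 and 71.6 FPKM at E-L 35 and 75.2, 57.3 and 73.6 FPKM at E-L 36. Of the ABA1000 steps, 1 was called, that of g03010 at E-L 38 against E-L 36 (1.20 ± 0.30, adjusted p = 0.0011, beside 19.3% of all genes called in either direction), which was lost without ABA1000 E-L 36 replicate 2 (adjusted p = 0.011), with 0.1 added (adjusted p = 0.045) and with median-of-ratios or quantile scaling (log2 fold changes of 0.93 and 0.96). The steps of ABA1000 from E-L 34 to E-L 35 (0.125% of all genes) and from E-L 35 to E-L 36 (3.65%) held 0 calls, with 5 and 1 members higher at an unadjusted p under 0.05 and 2 and 0 called by limma-voom. When NAA100 E-L 35 replicate 3 was left out, 3 members were called higher in ABA1000 at E-L 35 than at E-L 34 (0.210% of all genes), all 7 in NAA100 at E-L 36 than at E-L 35 (8.76%), and g03010 in ABA1000 at E-L 38 than at E-L 36 (19.4% in either direction).

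Whether the NAA100 effect differed between stages was tested as an interaction. From E-L 35 to E-L 36 it changed upwards for g03010 (2.93, adjusted p = 1.6e-06), g02810 (2.43, adjusted p = 0.0056) and g07200 (1.22, adjusted p = 9.4e-06), 3 of 7 members beside 10.4% of all genes. From E-L 36 to E-L 38 it changed downwards for g07200 (−1.11, adjusted p = 3.6e-05), beside 19.5% of all genes called in either direction. With median-of-ratios or quantile scaling this change was −0.89 or −0.99, under the size limit. From E-L 34 to E-L 35 limma called 0 members, beside 2.48% of all genes, with 0 at an unadjusted p under 0.05 and 0 in limma-voom. The call of g02810 was lost in 7 of the fits that leave out 1 library, those without NAA100 E-L 35 replicate 1 or 2, NAA100 E-L 36 replicate 1 or 3, Control E-L 35 replicate 2, or Control E-L 36 replicate 1 or 3 (adjusted p = 0.011 to 0.029). If NAA100 E-L 35 replicate 3 was left out, 7 members were called upwards in the first of these steps (10.2%) and 2, g03010 and g07200, downwards in the second (19.7% in either direction). A comparison of E-L 36 with E-L 34, which avoids the split group and was chosen after the values were seen, called 4 members upwards, g02805, g02810 (2.49, adjusted p = 0.0046), g02840 (2.29, adjusted p = 0.0080) and g03010 (2.87, adjusted p = 2.3e-06), beside 8.75% of all genes, while g02830 (3.16) had an adjusted p of 0.011. Leaving out the same library gave 6 members there (8.86%). The calls of g02810 and g02840 in this comparison were lost without some single libraries of the NAA100 and control groups at these stages, among them NAA100 E-L 36 replicate 1 or 3 and Control E-L 36 replicate 3, with adjusted p of 0.010 to 0.012 for g02810 and 0.011 to 0.019 for g02840. Both were also lost with quantile normalization and limma-voom (adjusted p = 0.0101 and 0.0102 for g02810, 0.0107 and 0.0109 for g02840). That of g02840 was lost without the filter and with median-of-ratios scaling as well (adjusted p = 0.013 and 0.011).

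The balance of the subfamilies was described by the sums of their FPKM in each library. The F3'5'H sum averaged 51.6, 135, 127 and 95.4 FPKM in ABA1000 berries at the 4 stages in turn, 0.781, 26.3, 110 and 92.8 FPKM in NAA100 berries, and 10.2, 26.6, 48.4 and 56.4 FPKM in control berries (n = 3 each). The NAA100 value at E-L 35 was the mean of 0.655, 0.680 and 77.7 FPKM, and without replicate 3 it was 0.667 FPKM. The F3'H sum averaged 17.5, 23.8, 30.1 and 53.3 FPKM in ABA1000 berries, 21.1, 20.5, 64.4 and 55.3 FPKM in NAA100 berries, and 17.2, 20.8, 27.3 and 51.4 FPKM in control berries. The 2 sums therefore moved apart most at E-L 34 and 35, where the F3'H sums of the 3 treatments were close while the F3'5'H sums differed widely.

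The log2 ratio of the F3'5'H sum to the F3'H sum was 1.37 ± 0.70, 2.51 ± 0.17, 2.07 ± 0.16 and 0.84 ± 0.05 (SD, n = 3) in ABA1000 berries at the 4 stages in turn. In NAA100 berries it was −4.78 ± 0.29, −2.65 ± 3.83, 0.76 ± 0.42 and 0.74 ± 0.09, and in control berries −0.80 ± 0.68, 0.23 ± 0.58, 0.81 ± 0.15 and 0.13 ± 0.29. The wide SD of NAA100 at E-L 35 came from replicate values of −5.01, −4.71 and 1.77. As a share of both sums, F3'5'H was 71.4%, 85.0%, 80.7% and 64.1% in ABA1000 berries, 3.57%, 28.0%, 62.7% and 62.6% in NAA100 berries, and 37.0%, 53.8%, 63.7% and 52.2% in control berries. The NAA100 share at E-L 35 was likewise carried by replicate 3 (3.02%, 3.69% and 77.3%), and without it the share was 3.35% and the log2 ratio −4.86. At E-L 36 the NAA100 and control ratios were close (difference −0.05), because both sums were higher in NAA100 berries, whereas the ABA1000 ratio was 1.26 above the control. A sum of FPKM compares levels per length of the gene models, several of which are short, so the ratio is of transcript levels as annotated and says nothing of enzyme activity.

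**Figure D4:**
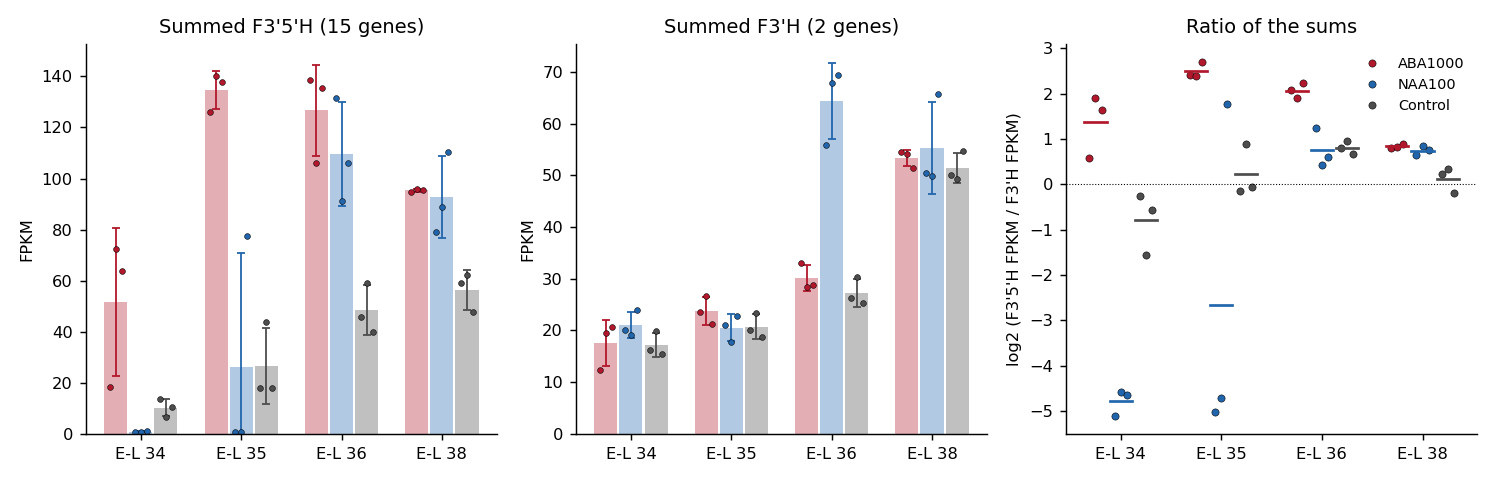
Summed FPKM of the 15 F3'5'H members and of the 2 F3'H members, and the log2 ratio of the sums, by stage; points are libraries of ABA1000, NAA100 or Control, bars with error bars are the mean and SD of 3 libraries, and short lines are the mean ratio. The mean log2 ratio is 2.51 and 2.07 in ABA1000 at E-L 35 and 36, at most 1.37 in every other group, and −4.78 in NAA100 at E-L 34.

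Ordered by mean level, g02830 ran from NAA100 E-L 34 over Control E-L 34, NAA100 E-L 35, Control E-L 35, Control E-L 38, Control E-L 36, ABA1000 E-L 34, NAA100 E-L 38, NAA100 E-L 36, ABA1000 E-L 38 and ABA1000 E-L 36 to ABA1000 E-L 35. Of the 11 pairs of neighbours, 9 overlapped in their libraries, so the order is coarse. The gaps without overlap lay between NAA100 E-L 34 and Control E-L 34 and between ABA1000 E-L 38 and ABA1000 E-L 36. The third place of NAA100 E-L 35 rested on replicate 3. Without it that group averaged 0.170 FPKM and stood second, above every NAA100 E-L 34 library and below every Control E-L 34 library, and 7 of the 11 pairs overlapped. For g07200 the order ran from Control E-L 34 over ABA1000 E-L 34, NAA100 E-L 35, Control E-L 35, NAA100 E-L 34, ABA1000 E-L 35, Control E-L 36, ABA1000 E-L 36, Control E-L 38, ABA1000 E-L 38 and NAA100 E-L 38 to NAA100 E-L 36. Only ABA1000 E-L 36 and Control E-L 38 did not overlap among neighbours, so g07200 fell into a lower range of 8 groups, which includes all of E-L 34 and 35, and an upper range of 4. This order was the same without NAA100 E-L 35 replicate 3.

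Across the 12 group means, which share treatments and stages, the 4 most abundant F3'5'H genes followed one another closely (Pearson r of 0.96 to 0.99). The gene g03010 was less like them (0.75 to 0.86) and most like the F3'H gene g07200 (0.90), while g02830 and g07200 had an r of 0.53. The 5 tested genes most like g02830 over these 12 means were g02970 (0.98), g02840 (0.97), VIT_208s0007g03550, described as a solute carrier of family 35 (0.97), VIT_216s0050g00910, described as TRANSPARENT TESTA 12-like, a type of flavonoid transporter (0.97), and GST4, VIT_204s0079g00690 (0.96). Those most like g07200 were VIT_200s0271g00010, described as nerolidol synthase 1-like, the uncharacterized VIT_219s0014g02870, VIT_209s0018g01490, described as methanol O-anthraniloyltransferase, VIT_217s0000g01920, described as NFXL1-like, and VIT_200s0203g00210, described as CONSTANS-like (0.98 each). With NAA100 E-L 35 replicate 3 left out, GST4 was seventh for g02830 (0.96) and g02810 took its place, and VIT_219s0014g02870 was at rank 19 for g07200 (0.97). Of these genes, VIT_209s0018g01490 rose by a log2 fold change of 4.31 in NAA100 berries at E-L 36 relative to control (adjusted p = 8.7e-18).

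Of 28 other genes of the flavonoid pathway and its regulators, 27 were tested. In ABA1000 berries relative to control, 1, 3, 0 and 0 of them rose at the 4 stages in turn and 0, 0, 1 and 0 fell, with medians of 0.80, 0.70, 0.39 and 0.24. In NAA100 berries 0, 2, 6 and 0 rose and 7, 5, 2 and 1 fell, with medians of −0.29, −0.26, 0.09 and 0.23. The medians over all tested genes lay between −0.08 and 0.09 in these comparisons. Of all tested genes limma called 0.136%, 0.847%, 0.489% and 0.182% higher and 0.551%, 0.608%, 0.176% and 0.466% lower in ABA1000 at the 4 stages in turn, and in NAA100 2.25%, 1.28%, 9.05% and 0.398% higher and 1.54%, 1.16%, 10.82% and 3.02% lower. Leaving out NAA100 E-L 35 replicate 3, the list had 11, 10, 1 and 0 genes called higher and 0, 0, 1 and 0 lower in ABA1000, and 0, 2, 6 and 1 higher and 8, 11, 2 and 1 lower in NAA100. Of all genes, that fit called 0.369%, 1.04%, 0.614% and 0.193% higher and 0.716%, 0.653%, 0.193% and 0.489% lower in ABA1000. In NAA100 it called 2.27%, 1.85%, 9.09% and 0.432% higher and 1.62%, 1.92%, 10.8% and 3.03% lower. Among those that fell in NAA100 berries at E-L 34 were the regulators of anthocyanin formation MYBA1 (log2 fold change −1.52, adjusted p = 0.0017) and MYBA2 (−3.13, adjusted p = 1.3e-06), and AOMT1 (−3.55, adjusted p = 7.7e-05), which methylates anthocyanins, and GST4 (−2.96, adjusted p = 0.0019). At E-L 36, MYBA2 rose in NAA100 berries (1.32, adjusted p = 0.0051), with 83.6, 75.6 and 92.2 FPKM, against 36.8, 39.3 and 24.6 FPKM in control berries.

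The flavonol synthase gene VIT_218s0001g03470, whose enzyme makes flavonols from substrates that F3'H and F3'5'H hydroxylate, had 35.8, 18.1 and 28.8 FPKM in NAA100 berries at E-L 36, against 1.03, 2.02 and 0.734 FPKM in control berries (3.65 ± 0.25, adjusted p = 9.0e-13). It rose in ABA1000 berries at E-L 35 (1.21 ± 0.25, adjusted p = 0.0016). UFGT, the glucosyltransferase that stabilises anthocyanidins, was listed at or near 0 in all libraries under the identifier used (VIT_216s0039g02230), and was not tested.

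Genes that serve P450 enzymes were followed beside the members. Of 9 genes described as NADPH-cytochrome P450 reductase, cytochrome b5 or cytochrome b5 reductase, none was called in ABA1000 against control, and 1 in NAA100 against control, the cytochrome b5 gene VIT_207s0005g06290, which fell at E-L 36 (−1.26, adjusted p = 8.9e-09), where limma called 19.9% of all genes in either direction. With 9 genes, counts as low as these are near the share of all genes called, and they were the same without NAA100 E-L 35 replicate 3. The P450 reductase genes VIT_211s0052g00880 and VIT_218s0001g07630 averaged 103 and 27.1 FPKM over the 36 libraries. A further gene, VIT_218s0001g09400, is described as cytochrome b5 by Uniprot only and was singled out after its values were seen. It had 47.5, 47.7 and 50.9 FPKM in ABA1000 berries at E-L 35, 0.529, 1.04 and 21.4 FPKM in NAA100 berries and 11.7, 26.2 and 9.52 FPKM in control berries, with the same split of NAA100 replicates as the F3'5'H genes, and no call against control at any stage.

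Outside the 2 loci, 8 further P450 genes carry such a description, and 2 of them were tested. VIT_209s0002g01090 (chromosome 9, described as F3'H by Uniprot and as cytochrome P450 71A1-like by NR) had 18.5, 13.6 and 12.1 FPKM in NAA100 berries at E-L 36, against 62.6, 49.4 and 39.4 FPKM in control berries (−1.71, adjusted p = 1.8e-09). VIT_211s0016g01020 (chromosome 11, described as F3'H) had 0, 0.0181 and 0.0176 FPKM, against 3.37, 4.57 and 4.30 FPKM (−2.32, adjusted p = 3.1e-10), and rose in ABA1000 berries at E-L 35 (1.28, adjusted p = 3.2e-04). Both fell in NAA100 berries at the stage at which g07200 rose.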

How the data were processed

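Berries of 12 groups (ABA1000, NAA100 and Control at 4 stages, 3 replicates each) gave 36 RNA-seq libraries. The values deposited by the authors are FPKM, computed after mapping with TopHat to a grape genome from the CRIBI site; the version for these reads, the counting tool and the treatment of reads with several matches are not given in the sources used here, and the submitters' processing notes name Bowtie. The sample titles say FPKM and the methods RPKM. The column names give the group of each library and a number, which was used as the replicate number. It is not tied to the letters in the titles. All columns of values were used.

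From these values, whole fragments were recovered as multiples of the smallest step for 17588 of the 17598 tested genes (99.9%, tolerance 0.01 of a fragment). The step gave 25.6 M to 28.7 M fragments per library as the number used for scaling. Intervals from these fragments cover counting error only. A gene was tested at 1 FPKM or more in at least 3 libraries, as log2(FPKM + 1), with limma 3.58.1 in R 4.3.3 (variance trend, 12 group means, 24 residual degrees of freedom); a call needed an adjusted p of at most 0.01 over all tested genes and a log2 fold change of 1 or more in size. Comparisons were ABA1000 and NAA100 against control and NAA100 against ABA1000 at each stage, each stage against the one before, and the change of each treatment effect between successive stages. The procedure was tested on simulated data. Replicates are biological samples of the same vineyard and year, so p-values measure the spread between them. Sums and ratios over the members are descriptions and carry no test. Python 3.11.15 with numpy 2.4.6, pandas 2.3.3, scipy 1.17.1 and matplotlib 3.10.9 was used for the summaries.

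The members and the gene lists were chosen with earlier results of these data known. Members with a group mean of at least 10 FPKM (6 genes) are given library by library and the others by range and counts. Outside the members, the 5 genes most alike in Pearson r over the 12 group means to the most abundant gene of each subfamily, a list of flavonoid genes (28 of 31 identifiers, those listed in the table with a fitting annotation) and the electron partners of P450s are given. The letters cytochrome b5 matched 20 genes, of which 13 are cytochromes b561 or b559, other proteins, and were left out; 7 remained, with 2 P450 reductases. Marker lists were taken by description for ripening pericarp, skin and cuticle, seed and green tissue. The alternatives were 0.1 as the added constant, no filter, a mean of at least 5 FPKM, TPM, median-of-ratios scaling (factors 0.825 to 1.19), quantile normalization, the 6 libraries of a comparison alone, the replicate number as a block, and the removal of 1 library at a time. Added after seeing the data were limma-voom on the recovered fragments and a fit without the 3 libraries whose seed markers exceed 1000 FPKM. No sequences are shown, since none of these genes came with one in the sources used here.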

Additional observations from a re-analysis of the deposited data

Results flagged for a closer look

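The NAA100 effect differed between stages by an interaction test for 3 genes in 4 cases. Between E-L 35 and E-L 36 the log2 fold change of NAA100 against control changed by 2.93 for g03010 (VIT_206s0009g03010; −0.40 at E-L 35), by 2.43 for g02810 (VIT_206s0009g02810; −0.89 at E-L 35) and by 1.22 for g07200 (VIT_217s0000g07200; −0.013 at E-L 35). Between E-L 36 and E-L 38 it changed by −1.11 for g07200. The NAA100 group at E-L 35 holds the library that stood apart. Without it the changes from E-L 35 to E-L 36 were still called, at 3.49 for g03010, 3.58 for g02810 and 1.30 for g07200. That of g07200 from E-L 36 to E-L 38 was still called as well. Leaving the library out lowers the spread by selection, so this is no separate support. In the same steps 10.4% of all tested genes were called upwards and 19.5% in either direction, for the first and the second step.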

How the results depend on the processing

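Of 35 called results of single members, 11 kept their call in every alternative that gave a value for them and 0 changed direction. Among 19 followed results that were not called, 0 changed direction. With the 6 libraries of a comparison alone, 13 of 27 followed calls were lost and 8 of these 19 results gained a call. Counts of calls over the members and stages moved more. They are given here without the share of all genes called under each setting, so a rise in them is no result about the members. For ABA1000 against control (3 calls) they were 0 with 0.1 added, 1 with TPM and 4 with the 6 libraries alone, none of them the 3. They were 6 with limma-voom and 10 without the 3 libraries high in seed markers. For NAA100 against control (4) they were 2 with a mean of at least 5 FPKM, 10 with the 6 libraries of a comparison alone, 7 with limma-voom and 14 without the seed-high libraries. For NAA100 against ABA1000 (13) they were 7 with 6 libraries alone. For stages within treatments (7) they were 3 with 6 libraries alone, 11 with limma-voom and 12 without the seed-high libraries, and for the changes of effects (4) they were 7 with limma-voom and 9 without those libraries. Limma-voom and the seed marker setting were chosen after seeing the data. Leaving out each library in turn gave 0 to 11 calls for ABA1000, 3 to 14 for NAA100, 11 to 13 for NAA100 against ABA1000, 6 to 13 for stages and 3 to 9 for changes of effects. The highest counts of ABA1000 (11), NAA100 (14), stages (13) and changes of effects (9) were those without NAA100 E-L 35 replicate 3. Without the most abundant gene of each subfamily the log2 ratio of the sums, ABA1000 minus control, was 2.46 in place of 1.26 at E-L 36 and −0.042 in place of 0.71 at E-L 38, where it rests on the low g07210 for F3'H. With libraries left out, ABA1000 minus control ranged from 1.78 to 2.56, 2.08 to 2.61, 1.17 to 1.34 and 0.55 to 0.82 at the 4 stages in turn, and NAA100 minus control from −4.36 to −3.71, −5.09 to −1.70, −0.29 to 0.11 and 0.46 to 0.73. A replicate block kept all 35 calls and the counts at 3, 4, 13, 7 and 4. No label ties the numbers to plots, so a pairing by plot could not be tested. Of 63 same-numbered pairs of libraries, 18 had an r over 0.1. The median r was −0.0070, against 0.0051 for differently numbered pairs. Median-of-ratios scaling shifted the median of all genes by up to −0.27 (ABA1000, E-L 38 against E-L 36). Fold changes of g07200 near 0 took either sign under other scalings. The cause of these differences was not tested. For members under 1 FPKM, depth limits what can be seen.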
